A study of Mus musculus with 6 samples.

Results

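Interferon-stimulated genes, which cells switch on in answer to interferons, were examined in abdominal white adipose tissue (WAT) of female hNAG-1 transgenic mice and wild-type (WT) mice. The list held 33 genes, taken by their symbols, and an array probe was found for 32 of them under the current or an older name, out of 27641 genes with a probe in all. No probe was found for Xaf1. All 32 were bright enough to be tested, among 21044 genes tested. Irf9 is listed in the files under its older name Isgf3g, and Irgm1 under Irgm. Gbp3 is listed under Gbp4, and its probe carries the accession of Gbp3.

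The hNAG-1 mice carry a transgene for human NAG-1, also called GDF15, a secreted protein of the TGF-β superfamily that the transgene produces in most tissues, with high levels in WAT. Both groups were C57/BL6 females of 30 wk. The hNAG-1 mice were of a single transgenic line. Each of the 3 arrays per genotype was hybridized with RNA pooled from 2 mice, and values of single mice were not measured. The transgene is human and no probe of it was used here from this mouse array, so the genotype labels could not be checked against it. The female label was checked: Xist was well above background on 6 of 6 arrays and 4 Y-linked genes on 0. Signals are spot brightness, set on a log2 scale relative to the 75th percentile of each array, and a gene is represented by its brightest probe.

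Interferons are secreted by cells that sense viral nucleic acid and by activated lymphocytes. Type I interferons bind a receptor whose kinases activate STAT transcription factors, STAT2 among them, which join IRF9 and bind the interferon-stimulated response element (ISRE) in the promoters of target genes, while interferon gamma acts at the GAS element. The induced proteins block viral translation, degrade or edit viral RNA, modify proteins with the ubiquitin-like ISG15, and present antigen. In WAT, adipocytes, macrophages and endothelial cells all express such genes at a resting level.

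Promoters are shown for 6 genes, the members with the largest test statistics among those whose promoter holds the letters of the response element. In the 250 bases before the start site, the letters GAAA, any pair of bases and GAAA, or the reverse complement TTTC, any pair of bases and TTTC, were found in 12 of the 29 members with a promoter in RefSeq (41.4%), against 936 of 27025 genes (3.46%) and 2.98% of 32851 windows of the same length. The 12 were Bst2, Gbp2, Gbp3, Ifit1, Ifit3, Igtp, Irgm1, Isg15, Oas1a, Oas3, Rsad2 and Stat2. The GAS letters TTCNNNGAA, which read the same on both strands, were found in 7 of 29 members (24.1%), against 8.13% of genes. They were found in Bst2, Eif2ak2, Ifit2, Igtp, Irf1, Isg20 and Oas1a, and in Bst2 the GAS letters overlap those of the ISRE. A match describes letters in a window and shows no binding. The stretches below come from RefSeq on build GRCm38.p6 and run 5′ to 3′ on the gene's strand, with up to 50 bases on either side of the matches and ending no later than the start site. Capitals mark the ISRE letters, and matches that overlap run together. Oas1a at chr5:120907526-120907595 on the minus strand, Ifit3 at chr19:34583323-34583466 on the plus strand, Bst2 at chr8:71537537-71537652 on the minus strand, Isg15 at chr4:156200825-156200946 on the minus strand, Oas3 at chr5:120777675-120777784 on the minus strand and Gbp3 at chr3:142559949-142560043 on the plus strand are shown.
Oas1a: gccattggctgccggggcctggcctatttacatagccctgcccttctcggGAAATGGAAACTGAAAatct
Ifit3: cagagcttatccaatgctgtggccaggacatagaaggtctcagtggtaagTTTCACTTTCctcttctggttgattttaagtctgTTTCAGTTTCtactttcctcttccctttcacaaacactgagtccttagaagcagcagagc
Bst2: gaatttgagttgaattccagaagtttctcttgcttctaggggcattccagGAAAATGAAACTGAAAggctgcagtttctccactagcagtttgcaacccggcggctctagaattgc
Isg15: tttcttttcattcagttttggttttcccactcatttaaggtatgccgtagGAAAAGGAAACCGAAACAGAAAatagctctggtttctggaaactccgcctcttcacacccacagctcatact
Oas3: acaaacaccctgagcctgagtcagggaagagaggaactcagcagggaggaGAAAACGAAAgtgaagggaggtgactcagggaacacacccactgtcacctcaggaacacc
Gbp3: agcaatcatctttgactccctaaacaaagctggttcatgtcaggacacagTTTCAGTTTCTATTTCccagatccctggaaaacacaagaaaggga
Overlapping matches stand in Oas1a, Bst2, Isg15 and Gbp3, separate ones in Ifit3, and a single one in Oas3. The 12 members with ISRE letters had log2 fold changes on both sides of 0, with 6 above, 6 below and a median of 0.0078. The 16 members whose window lacks the letters also divided evenly, with 8 above, 8 below and a median of 0.0089. Oas1a and Ifit3, both with a pair of matches, had fold changes of opposite sign.

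None of the 32 genes passed the test between hNAG-1 and WT mice. At an adjusted p under 0.05, 0 members differed upward and 0 downward (limma, Benjamini-Hochberg over all genes), and 0% of all genes tested passed in either direction. The smallest adjusted p was 0.364 among the members and 0.169 among all genes. The median log2 fold change of the list was close to 0, at 0.018 (range -0.47 to 0.54), beside 0.063 over all genes tested, and 17 members were above 0 and 15 below, where 58.9% of all genes were above 0 and 41.1% below. At an unadjusted p under 0.05 in limma, 0 members were higher, against 8.45% of all genes, and 2 were lower, Oas2 and Irf9, against 4.12% of all genes. These counts rest on the brightest probe of each gene. The second probes of Oas2 and Irf9 were at -0.092 and 0.0014. That of Isg20 was at 0.45 (unadjusted p = 0.014 in a limma fit over probes). All 3 hNAG-1 arrays lay below all 3 WT arrays for 5 members, Oas2, Irf9, Oas1a, Adar and Bst2, where 6.61% of all genes did so. They lay above all 3 WT arrays for 0 members, where 13.7% of all genes did. The 95% interval of the fold change stayed within 2-fold in both directions for 28 of the 32 members, and within 1.5-fold for 20, so changes of that size are outside the unadjusted intervals of those genes. The median SD within a genotype was 0.195 for the members and 0.223 for all genes. In the same arrays 7 of 8 fibroblast markers (median log2 fold change -0.31) and 8 of 10 macrophage markers (median -0.24) were below 0. Of 10 adipocyte markers, 8 were above 0 (median 0.20). These medians depended on the processing. With normexp background correction the fibroblast and macrophage medians were still below 0, at -0.083 and -0.10. Relative to the median of all genes they were 0.11 and 0.094 under normexp, against -0.37 and -0.30 in the main fit. With quantile normalization the adipocyte median was -0.032, or -0.050 relative to all genes, against 0.13 in the main fit. The part of these cell types in the values of the members was not tested. Fewer cells of a type and less RNA per cell cannot be told apart in whole tissue.

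**Figure D1:**
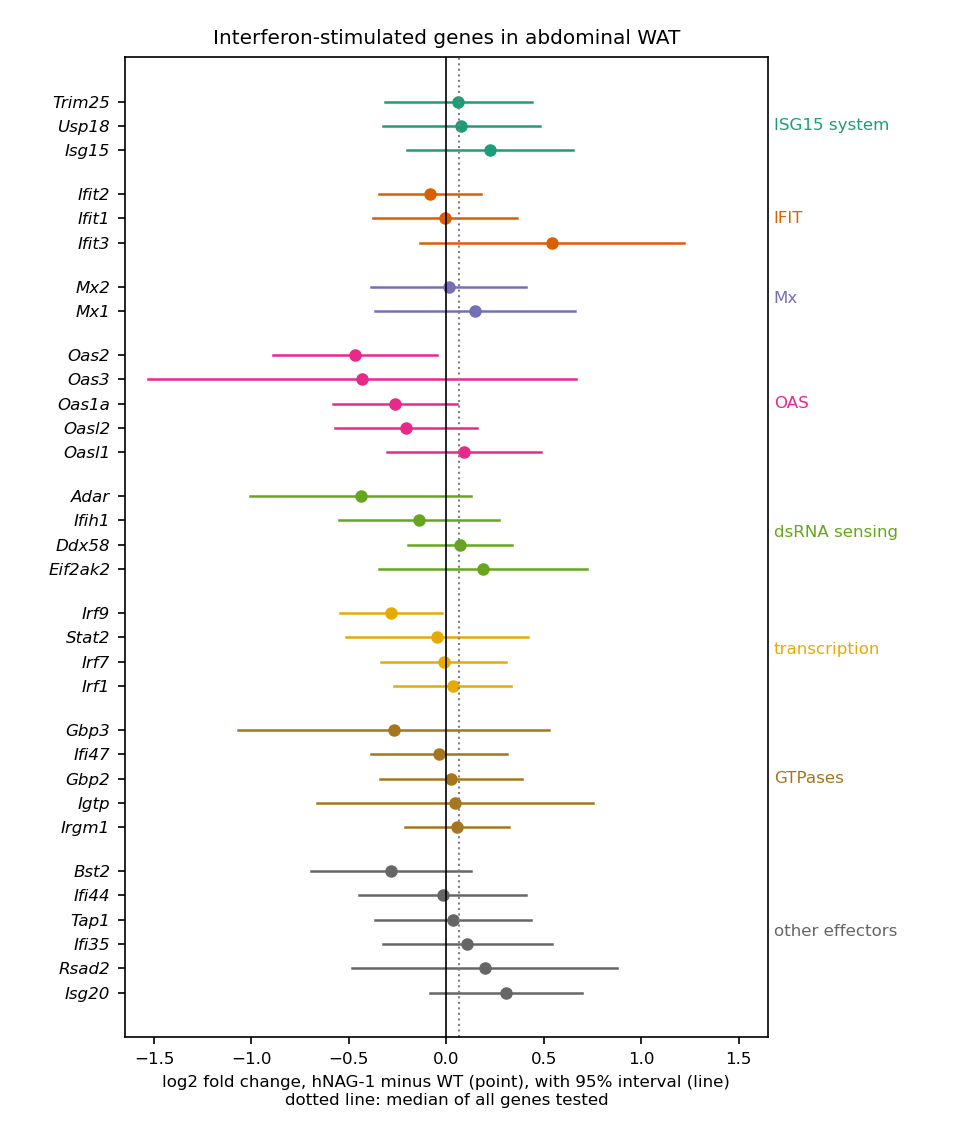
Log2 fold change, hNAG-1 minus WT, of the 32 interferon-stimulated genes with a probe, grouped by role (horizontal axis in log2 units; points are limma estimates from 3 arrays per genotype, lines are unadjusted 95% intervals, and the dotted line is the median of all genes tested, 0.063). The intervals of Oas2 and Irf9 lie below 0 and all others include 0, with Ifit3 the highest point at 0.54.

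The oligoadenylate synthetases sense double-stranded RNA and make a messenger that turns on the latent nuclease RNase L. Of 5 genes of this family, 4 were below 0 and 1 above (median -0.26 in log2 fold change, or -0.33 relative to the median of all genes), while all 5 were below 0 within the slide that held both genotypes. Under normexp, another background correction, all 5 were below 0 at a median of -0.21, which was -0.012 relative to the median of all genes. With normexp the median of all genes was itself -0.19 and 35.7% of them were above 0, so counts below 0 under it run high. Oas2, with its probe on chromosome 5 (mouse build mm7, 119964411 to 119964470), had processed signals of 589, 477 and 499.9 on the hNAG-1 arrays, against 1178, 779.6 and 875 on the WT arrays. After scaling, its log2 signal was -0.54, -0.58 and -0.33 on the hNAG-1 arrays, and 0.28, -0.23 and -0.10 on the WT arrays. All hNAG-1 arrays were thus below all WT arrays, with WT replicate 1 standing well above the rest. The log2 signal averaged -0.48 ± 0.133 in hNAG-1 mice and -0.014 ± 0.264 in WT mice (SD, n = 3 each). Oas2 was 1.38-fold lower in hNAG-1 mice (log2 fold change -0.47, standard error (SE) 0.17), with adjusted p = 0.364 in limma. Without WT replicate 1 its log2 fold change was -0.32. Another probe of Oas2 was at -0.092 (SE 0.283).

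Oas1a, another synthetase, whose probe lies on chromosome 5 from 120132325 to 120132384, gave scaled log2 signals of -0.023, -0.078 and 0.049 on the hNAG-1 arrays and 0.38, 0.059 and 0.30 on the WT arrays. The groups were separated by a small margin between hNAG-1 replicate 3 and WT replicate 2. Its log2 fold change was -0.26 (SE 0.128, adjusted p = 0.459 in limma). Oasl2, a synthetase-like gene, had log2 signals of 1.64, 1.30 and 1.61 in hNAG-1 mice and 1.89, 1.62 and 1.66 in WT mice, so the groups overlapped, at a log2 fold change of -0.21 (SE 0.148). Oasl1, which represses translation of Irf7, was at 0.089 (SE 0.16). Oas3 was near background. Its processed signals were 12.4, 11.6 and 15.2 on the hNAG-1 arrays and 22.0, 39.8 and 13.2 on the WT arrays, and it was well above background on 2 hNAG-1 and 3 WT arrays. Its log2 fold change of -0.43 (SE 0.445) was smaller than that SE.

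**Figure D2:**
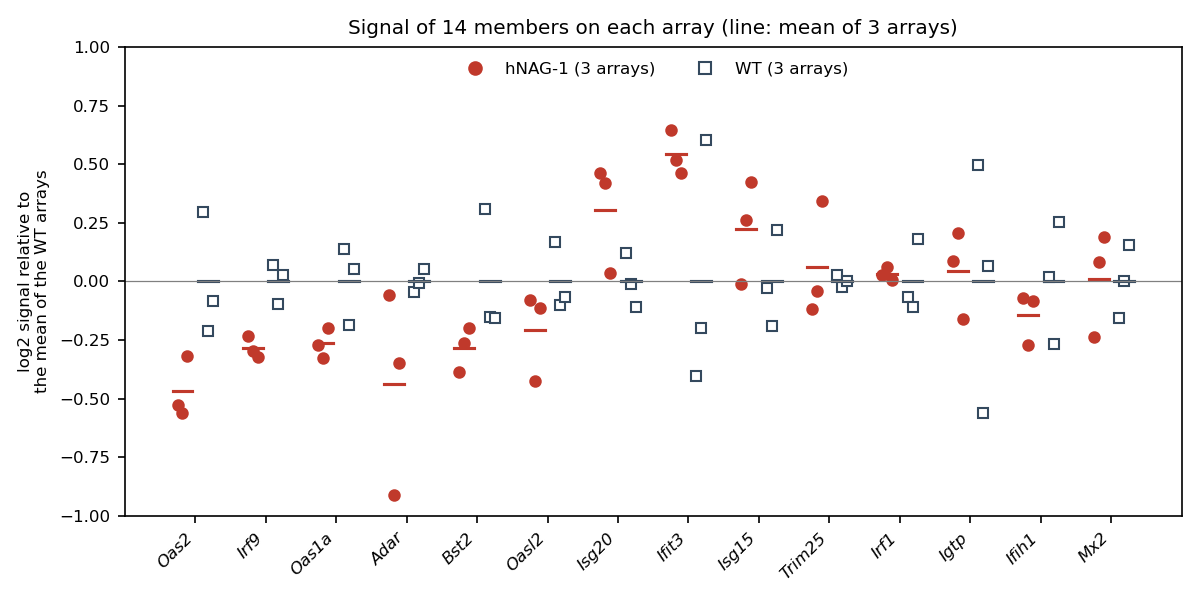
Log2 signal of 14 members on each array relative to the WT mean (vertical axis, log2 units; filled circles are hNAG-1 arrays, open squares are WT arrays, and lines are means of 3 arrays). The circles of Oas2, Irf9, Oas1a, Adar and Bst2 all lie below the squares, those of Ifit3 overlap WT replicate 3, and Adar is spread by a single hNAG-1 array.

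Among the 4 genes of transcription, 1 was above 0 and 3 below, with a median of -0.03, and under normexp 2 were above 0 and 2 below. Irf9 encodes the DNA-binding subunit of the complex that forms with STAT2 after type I interferon. Its probe lies on chromosome 14 from 50476767 to 50476826 of mm7, and its processed signals were 1119, 886 and 769.6 on the hNAG-1 arrays, against 1559, 1307 and 1457 on the WT arrays. The scaled log2 signal was 0.38, 0.32 and 0.29 in hNAG-1 mice and 0.69, 0.52 and 0.64 in WT mice. The groups did not overlap, and the spread within them was small (0.33 ± 0.0476 in hNAG-1 and 0.61 ± 0.0863 in WT mice, SD, n = 3 each). Irf9 was 1.22-fold lower in hNAG-1 mice (log2 fold change -0.28, SE 0.106), with adjusted p = 0.371 in limma. Another probe of Irf9 was at 0.0014 (SE 0.357).

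Its partner Stat2 was at -0.047 (SE 0.189), and Irf7, which amplifies transcription of the interferon alpha genes, at -0.014 (SE 0.131). Irf1, an activator that interferon gamma induces through GAS, had log2 signals of 3.54, 3.58 and 3.52 on the hNAG-1 arrays and 3.45, 3.41 and 3.70 on the WT arrays. These values overlapped, and the log2 fold change of Irf1 was 0.032 (SE 0.122), with a 95% interval of -0.27 to 0.33. Another probe of Irf1 was at 0.0036 (SE 0.15).

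The IFIT genes, whose proteins bind viral RNA and hold back its translation, divided. Ifit3 had the largest positive value of the whole list, and Ifit1 and Ifit2 were near 0. The processed signals of Ifit3, whose probe lies on chromosome 19 from 34289919 to 34289978 of mm7, were 3847, 2928 and 2487 on the hNAG-1 arrays and 2106, 2279.9 and 4071 on the WT arrays. After scaling these became 2.16, 2.04 and 1.98 in hNAG-1 mice and 1.12, 1.32 and 2.12 in WT mice. The hNAG-1 arrays were close together, and among the WT arrays replicate 3 lay within their range while replicates 1 and 2 were lower. The mean was 2.06 ± 0.0925 in hNAG-1 mice and 1.52 ± 0.531 in WT mice (SD, n = 3 each). The log2 fold change of 0.54 (SE 0.275, 95% interval -0.14 to 1.22) had an adjusted p = 0.474 in limma, and without WT replicate 3 it was 0.84 with adjusted p = 0.137. The other probe of Ifit3 was at 0.39 (SE 0.227). Ifit1 was at -0.0089 (SE 0.149) and Ifit2 at -0.085 (SE 0.106).

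Genes of the sensors and editors of double-stranded RNA did not differ together, with 2 above 0, 2 below and a median of -0.036. All 4 were below 0 under normexp, at a median of -0.066, which was 0.13 relative to the median of all genes. Adar, which encodes an enzyme that edits adenosine to inosine in double-stranded RNA, had processed signals of 611, 281 and 367 on the hNAG-1 arrays and 697, 675 and 719 on the WT arrays, from a probe on chromosome 3 at 89879736 to 89879795 of mm7. Its scaled log2 signal was -0.49, -1.34 and -0.78 in hNAG-1 mice and -0.48, -0.44 and -0.38 in WT mice. The groups did not overlap, but hNAG-1 replicate 1 lay next to WT replicate 1 and replicate 2 was far below the others. The log2 fold change was -0.44 (SE 0.23, adjusted p = 0.482 in limma), and it was -0.20 without hNAG-1 replicate 2 and -0.63 without hNAG-1 replicate 1. A second probe of Adar was at -0.13 (SE 0.0977).

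Ifih1, which encodes the cytoplasmic RNA sensor MDA5, had log2 signals of 0.72, 0.52 and 0.71 in hNAG-1 mice and 0.81, 0.52 and 1.05 in WT mice. The groups overlapped, at a log2 fold change of -0.14 (SE 0.166). Ddx58, the gene of the sensor RIG-I, was at 0.069 (SE 0.108), and its 3 other probes were at 0.68, -0.12 and -0.056. Eif2ak2, the gene of the kinase PKR, which halts translation, was at 0.19 (SE 0.217).

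The ISG15 system was represented by 3 genes, all above 0 and none past the test, but 1 was below 0 under normexp and all 3 within the shared slide. Isg15 itself had processed signals of 561, 562 and 555 on the hNAG-1 arrays and 626, 527 and 716 on the WT arrays. Because the arrays differed in overall brightness, the scaled log2 signals were -0.61, -0.34 and -0.18 in hNAG-1 mice and -0.63, -0.79 and -0.39 in WT mice. They overlapped, and the log2 fold change was 0.22 (SE 0.172, adjusted p = 0.619 in limma). The files place this probe on chromosome 17 from 44534906 to 44534965 of mm7, whereas RefSeq lists Isg15 on chromosome 4, so its target is less certain than that of the others. Usp18, the protease that removes ISG15 from proteins and damps receptor signaling, was at 0.076 (SE 0.163). Trim25, a ubiquitin ligase gene whose product activates RIG-I, had log2 signals of 2.09, 2.17 and 2.55 in hNAG-1 mice and 2.24, 2.19 and 2.21 in WT mice. The hNAG-1 arrays lay on both sides of the WT arrays, and the log2 fold change was 0.062 (SE 0.152). Its other probe had the opposite sign, at -0.32 (SE 0.148).

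The Mx genes, dynamin-like GTPases that trap viral nucleoproteins, are transcribed pseudogenes in the C57BL/6 reference. Mx2 had log2 signals of -1.83, -1.51 and -1.40 in hNAG-1 mice and -1.75, -1.59 and -1.44 in WT mice, which overlapped almost wholly at a log2 fold change of 0.012 (SE 0.161). Mx1 was at 0.15 (SE 0.208), and another probe of it, well above background on 1 hNAG-1 and 3 WT arrays, was at -0.37 (SE 0.161). Under normexp and within the shared slide both Mx genes were below 0.

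The interferon-inducible GTPases, which attack the membranes of intracellular pathogens, had a median log2 fold change of 0.025, with 3 above 0 and 2 below, whereas 1 was above 0 and 4 below under quantile normalization (median -0.033). Igtp, which encodes Irgm3, had log2 signals of 3.07, 3.19 and 2.83 in hNAG-1 mice and 3.48, 2.42 and 3.05 in WT mice. The WT arrays alone spanned the whole range of the hNAG-1 arrays, and the log2 fold change was 0.044 (SE 0.287). Irgm1, a regulator of this family, was at 0.056 (SE 0.108), Gbp2 at 0.025 (SE 0.148), Ifi47 at -0.04 (SE 0.141) and Gbp3 at -0.27 (SE 0.324).

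Of the other effectors, 4 of 6 were above 0, and 2 of 6 within the shared slide. Bst2 encodes tetherin, which holds budding virus at the cell surface. Its probe lies on chromosome 8 from 70001866 to 70001925 of mm7 and gave processed signals of 9427, 8539 and 7868 on the hNAG-1 arrays, against 17258, 11799.9 and 12074 on the WT arrays. After scaling, the values were 3.46, 3.58 and 3.65 in hNAG-1 mice and 4.15, 3.69 and 3.69 in WT mice. The groups did not overlap, with a gap of little width between hNAG-1 replicate 3 and WT replicates 2 and 3. The log2 fold change was -0.28 (SE 0.166, adjusted p = 0.527 in limma), and -0.13 without WT replicate 1.

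Isg20, an RNA exonuclease gene, had log2 signals of 1.43, 1.38 and 1.00 on the hNAG-1 arrays and 1.08, 0.95 and 0.85 on the WT arrays, from a probe on chromosome 7 at 74779788 to 74779847 of mm7. Replicates 1 and 2 of the hNAG-1 mice were above all WT arrays and replicate 3 was within them. Its log2 fold change was 0.31 (SE 0.157, adjusted p = 0.477 in limma). Another probe of Isg20 was at 0.45 (SE 0.13, unadjusted p = 0.014 and adjusted p = 0.296 in a limma fit over probes). Rsad2, which encodes viperin and makes a chain-terminating nucleotide, was at 0.20 (SE 0.276), and its 2 other probes were at 0.29 and 0.24. Ifi35, whose protein binds Nmi, was at 0.11 (SE 0.175), Tap1, a subunit of the peptide transporter for antigen presentation, at 0.036 (SE 0.162), and Ifi44 at -0.02 (SE 0.174).

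**Figure D3:**
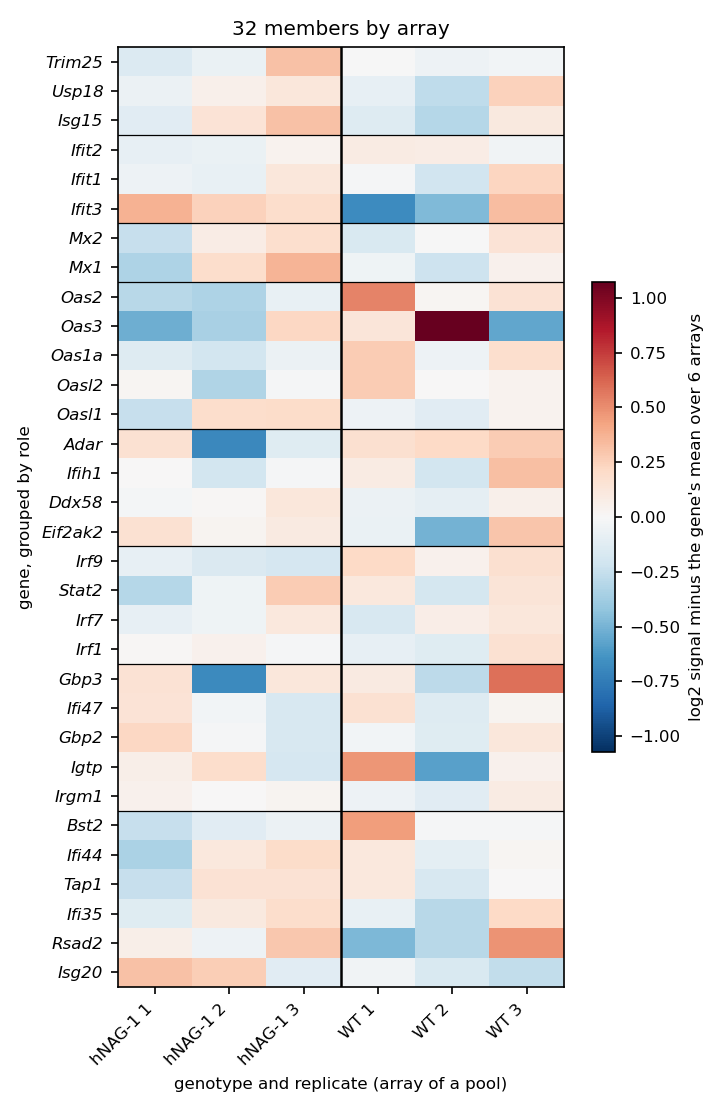
Log2 signal of the 32 members on each array, minus the gene's mean over 6 arrays (colour, log2 units; rows are genes grouped by role, columns are arrays of pools, hNAG-1 left of the line and WT right of it). The highest value of a row falls on hNAG-1 replicate 3 for 9 genes and on WT replicate 3 for 11, and the lowest on hNAG-1 replicate 1 for 9 and on WT replicate 2 for 9.

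For the median of the list, the spread between arrays of a genotype covered that between genotypes. Relative to the WT mean, the median of the 32 members was -0.076, 0.019 and 0.078 on hNAG-1 replicates 1 to 3, and 0.0039, -0.15 and 0.10 on WT replicates 1 to 3. The hNAG-1 medians thus lay within the range of the WT medians. Highest values were found on hNAG-1 replicate 3 for 9 members and on WT replicate 3 for 11, and lowest values on hNAG-1 replicate 1 for 9 and on WT replicate 2 for 9. Above the WT mean were 11, 17 and 20 members on hNAG-1 replicates 1 to 3, and 4 and 25 on WT replicates 2 and 3. The correlation of members between pairs of arrays was 0.978 to 0.995 across genes, which are not independent replicates.

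Slides differed between the genotypes, since hNAG-1 replicate 1 shared a slide with the 3 WT arrays and hNAG-1 replicates 2 and 3 were on another. Within the slide that held both genotypes, Oas2 was at -0.53, Irf9 at -0.23, Oas1a at -0.27, Bst2 at -0.39, Adar at -0.06, Ifit3 at 0.64 and Isg20 at 0.46, and slide as a fixed block gives the same estimates. The median of the members was -0.076 there, beside -0.029 for all genes, with 11 members above 0 and 21 below.

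**Figure D4:**
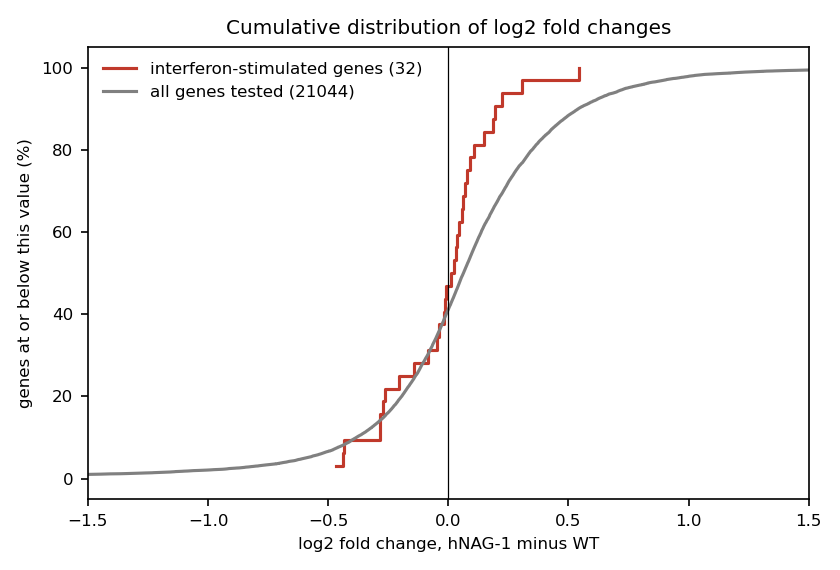
Cumulative share of genes (vertical axis, percent) at or below each log2 fold change, hNAG-1 minus WT (horizontal axis, from -1.5 to 1.5), for the 32 members and for all 21044 genes tested. The curve of the members ends at 0.54 and crosses its median at 0.018, and the curve of all genes has its median at 0.063 and longer tails.

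The rest of the pathway was followed in further lists. Of 18 interferon genes 15 had a probe and 9 were bright enough to test. All 9 had low signals and were above 0 (median log2 fold change 0.47). Under normexp, however, all 9 were below 0 (median -0.28, or -0.086 relative to all genes), and within the shared slide 6 were (median -0.096). At an unadjusted p under 0.05, 1 was higher, Ifna6 (11.1%, against 8.45% of all genes). The median over these genes was -0.096, 0.99 and 0.44 on hNAG-1 replicates 1 to 3 and 0.14, 0.19 and -0.25 on WT replicates 1 to 3, and without hNAG-1 replicate 2 it was 0.20 with 7 of 9 above 0. The lymphocyte markers moved with it, at -0.028, 1.10 and 0.34 on the hNAG-1 arrays and 0.057, 0.11 and -0.16 on the WT arrays, and their part in the result was not tested. Of these markers 9 of 9 tested were above 0, or 3 of 9 under normexp, and their summed scaled signal was 1.34 to 2.77 on the hNAG-1 arrays and 1.12 to 1.37 on the WT arrays. Ifna6 had processed signals of 24.9, 24.9 and 21.2 on the hNAG-1 arrays and 14.4, 21.0 and 14.8 on the WT arrays, and was well above background on 3 hNAG-1 and 1 WT arrays. Its log2 fold change was 0.88 (SE 0.201, adjusted p = 0.229 in limma). Ifna6 met the brightness limit only with the hNAG-1 arrays, where it was higher, so its test cannot count as support for a difference. The 7 interferon genes well above background on all 6 arrays had a median of 0.43. Ifng, the gene of interferon gamma, was at 0.63 (SE 0.335), Ifna1 at 0.64 and Ifna13 at 0.47. Ifnb1 was under the brightness limit.

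Of 12 genes of receptors and kinases, 2 were above 0 and 10 below, with a median of -0.065, or 6 and 6 under normexp, and 1 was lower at an unadjusted p under 0.05 (8.33%, against 4.12% of all genes). Irf5, which drives cytokine genes in myeloid cells, was at -0.27 (SE 0.107), the kinase gene Jak1 at -0.23 and the receptor gene Il10rb at -0.16.

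Of 14 sensors of nucleic acid and their adaptors, 7 were above 0 and 7 below (median -0.05), with Tlr7, an endosomal receptor for single-stranded RNA, at -0.30, the gene of the DNA sensor cGAS at -0.30, Ifi204 at -0.32 and Nod1 at -0.20. Of 10 negative regulators 8 were below 0 (median -0.11), or 5 of 10 within the shared slide. Samhd1, a nucleotide hydrolase gene, was at -0.28 (SE 0.099, adjusted p = 0.357 in limma), Otud4 at -0.26, Socs3, an inhibitor of the receptor kinases, at -0.19 and Nlrx1 at 0.38.

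**Figure D5:**
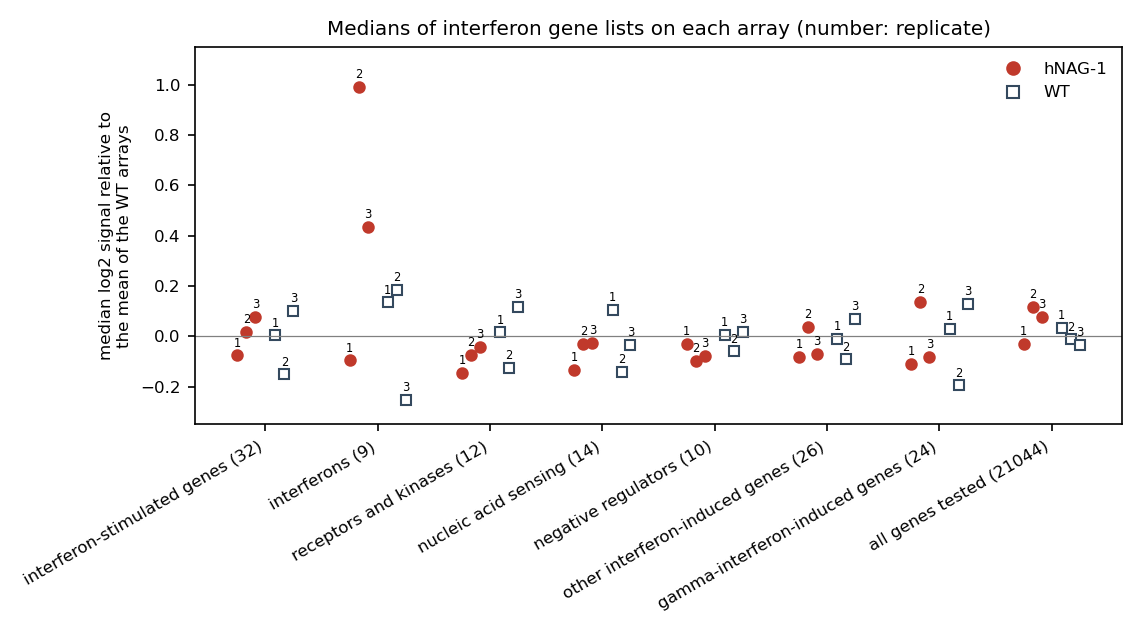
Median log2 signal of each interferon gene list on each array, relative to the WT mean (vertical axis, log2 units; filled circles are hNAG-1 arrays, open squares are WT arrays, numbers are replicates, and the number of genes tested stands in brackets). The hNAG-1 medians of the 32 members, from -0.076 to 0.078, lie within the WT range of -0.15 to 0.10, and the median of the interferon genes reaches 0.99 on hNAG-1 replicate 2.

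A wider list of interferon-induced genes held the lowest values found in the pathway. Of 26 tested, 11 were above 0 and 15 below, also under normexp and within the shared slide, with a median of -0.026, and 2 were lower at an unadjusted p under 0.05, Ifi27l2a and Ly6e (7.69%, against 4.12% of all genes). Ifi27l2a, which encodes a small hydrophobic protein, had log2 signals of 7.08, 6.63 and 6.79 in hNAG-1 mice and 7.61, 7.80 and 7.74 in WT mice. The groups stood well apart, with a 1.84-fold lower mean in hNAG-1 mice (log2 fold change -0.88, SE 0.152), although its adjusted p = 0.191 in limma missed the threshold. Ly6e, a membrane-anchored protein gene, had log2 signals of 2.64, 2.46 and 2.10 in hNAG-1 mice and 2.99, 3.32 and 3.18 in WT mice. These did not overlap either, at a log2 fold change of -0.76 (SE 0.181, adjusted p = 0.237 in limma). Slfn5 was at -0.33 and Parp14 at -0.30. Of 24 genes induced by interferon gamma, 11 were above 0 and 13 below (median -0.055), or 13 and 11 under normexp, with 0 in either direction at an unadjusted p under 0.05. Tap2, the partner of Tap1, was at 0.25, Gbp5 at 0.27, Gbp7 at -0.24 and the invariant chain gene Cd74 at -0.32.

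Markers of the cells in this tissue stand beside these values. The 10 adipocyte markers were well above background on all 6 arrays, with 8 above 0 and 2 below (median log2 fold change 0.20), or 4 and 6 under quantile normalization (median -0.032). For 3 of them all hNAG-1 arrays lay above all WT arrays, against 13.7% of all genes. For 1 they lay below, against 6.61% of all genes. Their median was 0.11, 0.18 and 0.27 on the hNAG-1 arrays and -0.14, -0.015 and 0.14 on the WT arrays. Of 8 fibroblast markers 1 was above 0 and 7 below (median -0.31), or 2 and 6 under normexp (median -0.083, which was 0.11 relative to all genes). Their median was -0.20, -0.49 and -0.27 on the hNAG-1 arrays and 0.19, -0.11 and -0.12 on the WT arrays, so that all hNAG-1 medians lay below all WT medians. For 4 of the 8 markers all hNAG-1 arrays lay below all WT arrays, against 6.61% of all genes. The summed fibroblast signal, each gene as a multiple of the 75th percentile, was 439 to 519 on the hNAG-1 arrays and 491 to 574 on the WT arrays, which overlapped. Of 9 endothelial markers 3 were above 0 and 6 below (median -0.12), or 5 and 4 under normexp. Of 10 macrophage markers 2 were above 0 and 8 below, median log2 fold change -0.24. Under normexp 3 were above 0 and 7 below, with a median of -0.10, which was 0.094 relative to all genes. For 3 of the 10 macrophage markers all hNAG-1 arrays lay below all WT arrays, against 6.61% of all genes. Their median was -0.27, -0.27 and -0.19 on the hNAG-1 arrays and 0.15, -0.20 and -0.043 on the WT arrays, and these overlapped. The summed macrophage signal was 133.3 to 138.4 on the hNAG-1 arrays and 124.9 to 161.3 on the WT arrays. Highest of the WT arrays in the fibroblast and macrophage medians was replicate 1. It was the highest array for 8 of the 32 members, Oas2, Irf9, Oas1a and Bst2 among them. Adar was highest on WT replicate 3, as were 11 members in all. Of 8 markers of plasmacytoid dendritic cells, which hold Bst2, 3 were above 0 and 5 below (median -0.14). The part of these cells in the values of the members was not tested. Muscle markers were high on hNAG-1 replicate 2 and WT replicate 1 (medians 1.87 and 1.28) and pancreas markers on WT replicate 2 (median 3.26). On each array 71.2% to 82.0% of spots were well above background.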

How the data were processed

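RNA from abdominal WAT was measured on 6 single-colour Agilent arrays, 3 per genotype. The paper's methods name an Affymetrix array, and the scanner files are Agilent's. The authors deposited Agilent Feature Extraction 9.5 output (version per the submitters' processing notes) with spot intensity, background-subtracted within each array and not normalized between arrays. The series table held the same intensity values in all rows. Arrays give no counts, so their number limits the precision. At the 75th percentile, the hNAG-1 arrays read 858.2, 711.9 and 628.8 and the WT arrays 969.6, 912.6 and 935.2.

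Spots marked as controls or outliers were removed, replicate spots of each probe averaged, and log2 signal minus each array's 75th percentile over probes taken. A RefSeq table (GRCm38) gave names to 22951 of 41174 probes by accession, to 6659 by symbol and to 3109 by older name, and 8455 were left with the file's name. Genes well above background on at least 3 of 6 arrays were tested with limma 3.58.1 in R 4.3.3 (two-sided, Benjamini-Hochberg, threshold 0.05), after tests on simulated data. The pools are of different mice, so p-values measure the spread between pools. Members and lists were chosen with earlier results of these data known. Values on each array are printed for members with an unadjusted p under 0.05, with the 8 largest moderated t, with the highest probe signal of each role or with no overlap, and of each pathway list up to 4 genes by moderated t are named; Isg15 and Oas3, and the wider-list genes with values by array, were added after their values were seen. Alternatives were other normalizations, filters and variance models, the mean of a gene's probes, slide and replicate blocks, and each array left out.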

Additional observations from a re-analysis of the deposited data

How the results depend on the processing

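At an adjusted p under 0.05, 0 members passed under every alternative run. Counted by an unadjusted p under 0.05 the number was 2, and by no overlap between genotypes 5. At an unadjusted p under 0.05, 0 members were higher and 2 lower; averaging all probes of a gene, these were 1 and 0, and leaving out each array gave 0 to 2 higher and 0 to 3 lower. The 2 lower became 1 with no filter on dim probes, and 0 with normexp background correction, within the shared slide and with the slide as a fixed block. In both slide settings the comparison rests on a single hNAG-1 array, so these lost calls say little. The log2 fold changes there were -0.53 for Oas2, -0.23 for Irf9 and -0.06 for Adar, which was at -0.44 over all arrays. For hNAG-1 replicates 2 and 3, which shared no slide with WT arrays, genotype and slide cannot be told apart. Same-numbered pools share only a number (correlations of deviations 0.0998, 0.513 and 0.0917), and with the replicate block 0 members were lower and the smallest adjusted p was 0.445. Members without overlap were 1 lower with normexp, and 1 higher and 3 lower with the mean of probes. Over all genes, an intensity trend with robust variances let 107 higher and 23 lower pass the adjusted threshold, and slide as a fixed block 1 and 1. At an unadjusted p under 0.05, 1779 genes were higher and 866 lower, 325 and 112 with normexp, 828 higher with slide as a fixed block, 570 higher within the slide, and 957 to 2369 higher and 532 to 1250 lower without single arrays. The median of the members was 0.018, and lay between -0.087 with normexp and 0.070 without WT replicate 3 under the alternatives. Normexp put the median of all genes at -0.19, and relative to it the members at 0.11, with 35.7% of all genes above 0 against 58.9%. Both with the slide block and within the shared slide, Isg15 was at -0.010, Mx1 at -0.26, Mx2 at -0.24, Oasl1 at -0.21 and Tap1 at -0.23. Leaving out each array gave -0.12 to 0.14 for Ifi44, the highest without hNAG-1 replicate 1, and -0.24 to 0.29 for Igtp, the lowest without WT replicate 2. The cause was not tested. A change of sign with both values under their standard errors was not counted as a reversal. The series table equals the scanner values and was not run again. Oas3 and the interferon genes lay near background, which limits their values.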
